A study of Mus musculus with 10 samples.

Results

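The genes described here are 49 long noncoding genes that GENCODE release vM21 classes as antisense, meaning that they are transcribed from the strand opposite to another gene, and that were expressed in mouse embryonic stem cells. They were chosen by a mean of at least 20 estimated RNA-seq counts over 3 replicates, off chromosomes X and Y, leaving out Airn, Kcnq1ot1, Zfas1 and Snhg names. The tables of 55487 genes held 2959 antisense genes, of which 2909 met the conditions on chromosome and name. Of those 2909, 2077 had no count in any replicate, 783 had a mean above 0 but under 20, and 49 (1.68%) made the list. The cells were E14, a mouse embryonic stem cell line, in 3 unperturbed replicates grown in 15% serum with LIF, 3 µM GSK inhibitor and 1 µM MEK1/2 inhibitor, with no genotype change or treatment that differed between them. The series has 10 samples in 6 groups, of which the 7 R-loop libraries were not used here. No groups were compared, and every error below is the spread of these 3 RNA-seq libraries. Nothing in the labels says whether the replicates came from separate cultures, so the spread may be technical.

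Antisense transcription arises at active promoters, where RNA polymerase often starts in both directions, and also within or beyond the end of a gene on the other strand. Many antisense RNAs are short-lived, stay in the nucleus and are removed by the RNA exosome, and a few, such as those of imprinted clusters, silence neighbouring genes in cis. An RNA made across a gene in the opposite direction is also a candidate strand of an R-loop, the RNA and DNA hybrid that this series was designed to map strand by strand.

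Replicate 1 was the deepest, with 11420425 estimated counts, against 6467405 for replicate 2 and 5787357 for replicate 3. A mean of 20 counts therefore stood for 1.75, 3.09 and 3.46 CPM, counts scaled to the library total. A count of 0 allows up to 3 counts, a floor of 0.263 to 0.518 CPM that covers counting error only. Of 8 pluripotency genes, all 8 lay at or above a mean of 16.6 TPM, a level scaled by transcript length and library size. Of 19 markers of fibroblasts and the 3 germ layers, Tubb3 (11.6 TPM) and Thy1 (2.50 TPM) exceeded a mean of 1 TPM, and 4, with Col3a1 and Foxa2 among them, had no count in any replicate.

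The 49 genes together held 0.0659%, 0.0611% and 0.0518% of all counts in the 3 replicates. They held a mean of 68.3% of the counts of the 2909 genes, a share that the choice by count raises. Those 2909 leave out Kcnq1ot1, which alone had 6051, 2799 and 2986 counts, against 7521, 3949 and 3000 for the 49 together. Tug1 held a mean of 46.5% of the members' counts. Mean counts were under 50 in 35 members and at least 100 in 9. In raw counts the number of members depended on the deepest library. Without replicate 1, 32 genes reached a mean of 20 counts, against 59 without replicate 2 or without replicate 3. A limit in mean CPM, set at the level of 20 counts in the mean library, also gave 49 genes. Just inside the limit lay Kank4os (mean 20 counts), 2900060B14Rik (20.1) and 6230400D17Rik (20.3), and just outside it 4930513N10Rik and Gm17690 (19.3 each) and Gm4419 (19).

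Levels spanned 2 orders of magnitude, although most members were low. Only Rab26os and Tug1 exceeded a mean of 10 TPM, 22 lay from 1 to 10 TPM and 25 lay under 1 TPM, with a median of 0.99 TPM. Since counts chose the members, these levels are a description. Rab26os (ENSMUSG00000093565, chromosome 17, 24528248 to 24528744, GRCm38), which lies inside the secretory-vesicle GTPase gene Rab26 on the other strand, had 28.9, 24.2 and 29 TPM in replicates 1, 2 and 3, a mean of 27.4 ± 2.77 (SD, n = 3). Its place at the top depended on the scaling by length, since its effective length averaged 206 nt and it ranked 8 by mean count. Tug1 (ENSMUSG00000056579, chromosome 11, 3639785 to 3649673), a conserved long noncoding RNA, had 28.4, 23.7 and 15.3 TPM and ranked 1 by count, with 3647, 1892 and 1297 counts. Rab26os was the higher of these 2 genes within each library, although their ranges overlapped, and both stood above every other member in each replicate.

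**Figure D1:**
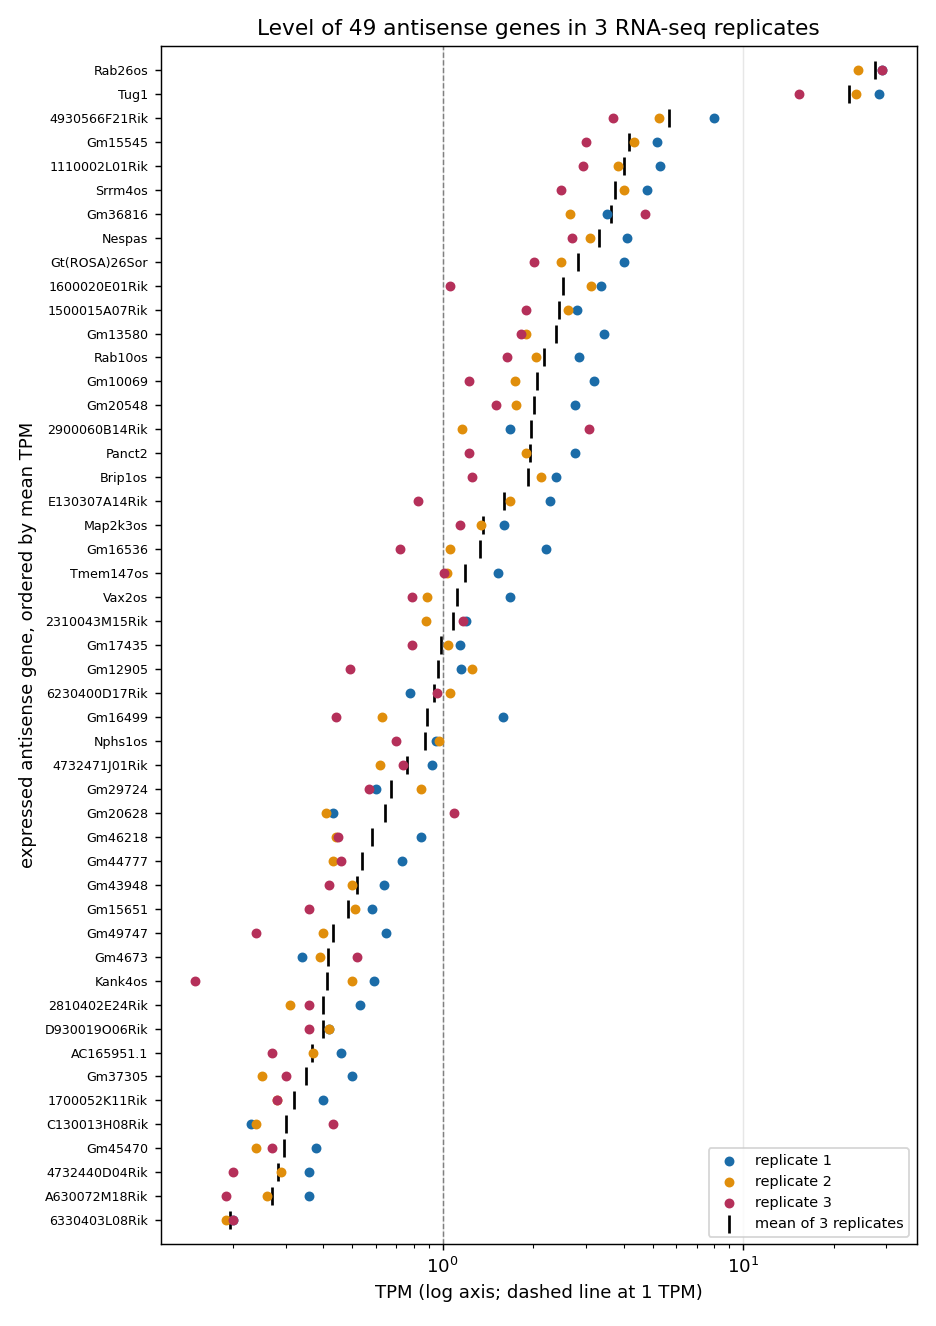
Level in TPM (x axis, log scale) of the 49 antisense genes (y axis, ordered by mean) in the 3 RNA-seq replicates, with coloured points for replicates and a black tick for the mean. Rab26os and Tug1 sit apart at 15.3 to 29 TPM, the other 47 at or below 8 TPM. Replicate 3 is the lowest point for 33 of 49 genes, and also for 35 of their 47 sense genes (not drawn).

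After those came 4930566F21Rik with 8, 5.24 and 3.7 TPM, Gm15545 with 5.15, 4.34 and 3 TPM, and 1110002L01Rik with 5.28, 3.83 and 2.94 TPM. These 3 overlapped one another across replicates. Srrm4os (ENSMUSG00000086219, chromosome 5, 116438720 to 116465487) had 4.78, 4 and 2.48 TPM, and Gm36816 had 3.53, 2.66 and 4.72 TPM. Nespas (ENSMUSG00000086537, chromosome 2, 174281237 to 174295436), the paternally expressed antisense RNA of the imprinted Gnas cluster, had 4.12, 3.1 and 2.69 TPM. Gt(ROSA)26Sor (ENSMUSG00000086429, chromosome 6, 113067428 to 113077333), the Rosa26 locus widely used to insert transgenes, had 4, 2.47 and 2.02 TPM. Panct2 (ENSMUSG00000097814, chromosome 1, 96871126 to 96907796) ranked 5 by count but 17 by TPM, with 2.76, 1.89 and 1.22 TPM. The lowest member was 6330403L08Rik, with 0.2, 0.19 and 0.2 TPM from 29, 19 and 20 counts.

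The promoters of these genes are shown because CpG content differed between the members and antisense genes without counts. Each window runs from 250 bases before to 50 bases after the annotated start, read on the antisense gene's own strand from the GRCm38 genome, and capitals mark CpG dinucleotides, the sites of DNA methylation that are dense in CpG islands. The 4 shown were taken from the 23 members whose window holds no annotated UTR or coding base, to show low and high CpG content and include the 3 named loci Rab26os, Nespas and Panct2. They lie at chr17:24527998-24528297 (plus strand), chr2:174295387-174295686 (minus), chr8:72492684-72492983 (plus) and chr1:96870876-96871175 (plus).
Rab26os: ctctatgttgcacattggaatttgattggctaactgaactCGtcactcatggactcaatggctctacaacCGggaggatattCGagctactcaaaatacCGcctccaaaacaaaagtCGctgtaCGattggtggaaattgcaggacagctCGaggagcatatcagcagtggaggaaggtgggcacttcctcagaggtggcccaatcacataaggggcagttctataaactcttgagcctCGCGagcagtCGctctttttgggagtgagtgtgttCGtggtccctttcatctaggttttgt
Nespas: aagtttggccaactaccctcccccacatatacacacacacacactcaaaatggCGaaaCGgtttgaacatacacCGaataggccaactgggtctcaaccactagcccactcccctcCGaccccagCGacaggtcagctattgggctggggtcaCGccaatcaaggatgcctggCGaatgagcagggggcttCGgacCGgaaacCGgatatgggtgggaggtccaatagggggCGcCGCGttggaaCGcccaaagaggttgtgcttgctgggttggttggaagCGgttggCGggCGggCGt
Gm17435: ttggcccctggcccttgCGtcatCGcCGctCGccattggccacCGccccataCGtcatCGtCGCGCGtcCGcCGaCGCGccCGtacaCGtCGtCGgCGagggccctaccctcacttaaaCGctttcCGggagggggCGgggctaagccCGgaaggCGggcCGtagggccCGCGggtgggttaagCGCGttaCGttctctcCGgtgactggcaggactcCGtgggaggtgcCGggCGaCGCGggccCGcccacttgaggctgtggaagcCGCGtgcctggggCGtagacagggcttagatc
Panct2: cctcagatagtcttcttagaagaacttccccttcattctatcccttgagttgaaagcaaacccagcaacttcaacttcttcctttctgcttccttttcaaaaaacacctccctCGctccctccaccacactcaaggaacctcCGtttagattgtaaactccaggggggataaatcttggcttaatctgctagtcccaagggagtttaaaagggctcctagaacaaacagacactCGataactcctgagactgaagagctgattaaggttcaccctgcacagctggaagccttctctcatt

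The Gm17435 window, beside the coding gene Slc35e1, held 40 CpG and was 70.3% G or C, whereas the Panct2 window held 3 CpG. Rab26os, with the highest TPM, had 11 CpG, and Nespas 18. Over the 49 members the number ran from 1 to 48 with a median of 18. The median was 5 over the 2076 antisense genes without counts that gave a window, 8 over the 783 with fewer than 20 mean counts, 7 over 128 intergenic (lincRNA) genes chosen by the same count limit, and 20 over 10605 protein-coding genes at that limit. At least 15 CpG were present in 27 members (55.1%), 34 of the lincRNA genes (26.6%) and 12.6% of antisense genes without counts. These are descriptions of annotated starts and were not tested. Among the members, CpG number did not track level (Spearman's rho -0.03, 49 genes in the same libraries).

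**Figure D2:**
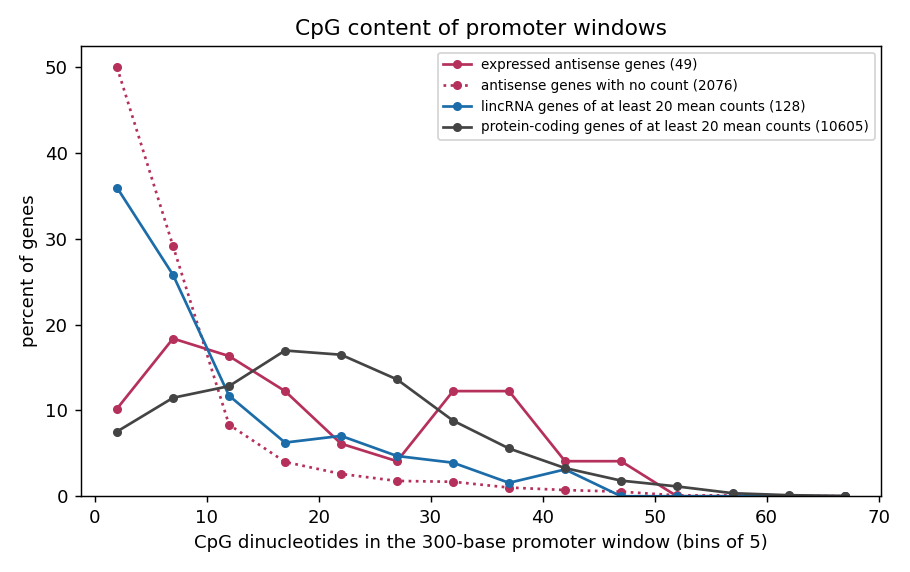
Percent of genes (y axis) by number of CpG dinucleotides in the 300-base promoter window (x axis, bins of 5), for the 49 expressed antisense genes, 2076 antisense genes with no count, 128 lincRNA genes and 10605 protein-coding genes of at least 20 mean counts. The expressed antisense genes spread across the axis with a median of 18, between the uncounted antisense genes (median 5) and the protein-coding genes (median 20).

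Short motifs were counted in the same windows on either strand, without regard to overlap between motifs. The GC box GGGCGG, a site of SP-family factors, was present in 30 members (61.2%), against 22.7% of the windows of all 55091 genes. The ETS core CGGAAG was present in 15 members (30.6%) against 12%, and CCAAT in 23 (46.9%) against 38.5%. The TATA box TATAAA was present in 2 members, Rab26os and 4930566F21Rik (4.08%), against 17.1% of all windows. Protein-coding genes of at least 20 mean counts had 62% for GGGCGG, 31.6% for CGGAAG, 39.8% for CCAAT and 6.92% for TATAAA, so the members stood nearer to them than to all genes for GGGCGG and CGGAAG. The 128 lincRNA genes had 28.9%, 26.6%, 50% and 14.8% for the same motifs in that order. A match describes the letters only. G over C skew in the 300 bases after the start is a feature discussed for R-loops. It was positive in 25 of 49 members, with a median of 0.01. The median was also 0.01 for antisense genes with fewer than 20 mean counts. It was 0.03 for antisense genes without counts, 0.04 for all genes, 0.07 for protein-coding genes and 0.08 for the lincRNA genes.

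Nearly every member crossed a coding gene, which follows largely from how the antisense class is defined. An opposite-strand gene overlapped 47 of the 49, against 766 of the 832 antisense genes with any count. Where several did, the coding gene with the longest overlap was taken as the sense gene, and all 47 were protein-coding. Map2k3os and Gm13580 overlapped none in vM21. In 17 pairs the genes ran tail to tail, overlapping at their ends, in 14 they ran head to head with each start inside the other, in 12 the antisense gene lay within the sense gene, and in 4 it contained the sense gene. Exons of the 2 genes shared bases in 38 pairs, with a median of 442.5 nt among these. The extreme was A630072M18Rik, a gene with 1 exon of 5410 nt, of which 5142 nt lay on exons of Rsbn1l.

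Whether reads of the 2 strands were told apart bears on every such pair. The library kit keeps strand, but the strand setting of the counting is not stated, so the values of overlapping genes stay uncertain. RSEM divides a read that matches several genes among them, which leaves fractional counts. Counts were whole numbers (within 0.005) in every replicate for 45 of the 49 members. They were whole for both genes in 31 of the 38 pairs with shared exon bases, and in 12 of the 15 sharing at least 500 nt. A630072M18Rik had 52, 26 and 19 counts while Rsbn1l had 451, 316 and 194, all whole. The 4 members with fractions were Tug1, Rab26os, 2900060B14Rik and Gm10069, and 3 of them hold a small RNA gene in an exon on their own strand. In 2900060B14Rik (chromosome 1, 118458652 to 118459267), a 616 nt gene inside Clasp1, the small gene is the snRNA record Gm22710 of 125 nt. It took 160.2, 111.7 and 223.8 counts against 21.8, 10.3 and 28.2 for the antisense gene, and the 2 summed to 182, 122 and 252. The Rab26os exon holds Snord60, a C/D box snoRNA gene with 0, 1.96 and 0 counts.

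Members stood on both sides of their sense genes. By TPM, 25 of the 47 lay below the sense gene with ranges over the 3 replicates that did not overlap, 13 lay above it and 9 overlapped it. The same calls held for 78.6% (below) and 4.67% (above) of the 707 antisense genes with any count whose sense gene also had counts. Both genes of a pair were measured in the same library, and within each library 26 members lay below the sense gene in all 3 and 16 above, against 81.5% and 6.22% of the 707. The 4 pairs with overlapping ranges that kept 1 order were E130307A14Rik below Traf3ip2, and Gm10069, Gm16536 and AC165951.1 above Pzp, Bace1 and Glp1r. The rule set a floor on the antisense level, so nothing is read from the difference to the 707. With 3 values against 3, an exact test cannot pass 0.05, and none is given. The median log2 difference, antisense minus sense on log2(TPM + 0.1), was -1.35, -1.37 and -0.70 in replicates 1, 2 and 3, or -1.14 ± 0.38 (SD, n = 3). It turned to 0.25 among the 14 pairs with at least 50 mean counts, so its sign depends on the count limit. Levels of the 2 genes were not ordered together: Spearman's rho was -0.08 over 47 pairs, whose points share libraries, and it was 0.059 with CPM and 0.0452 when the highest opposite gene was taken.

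**Figure D3:**
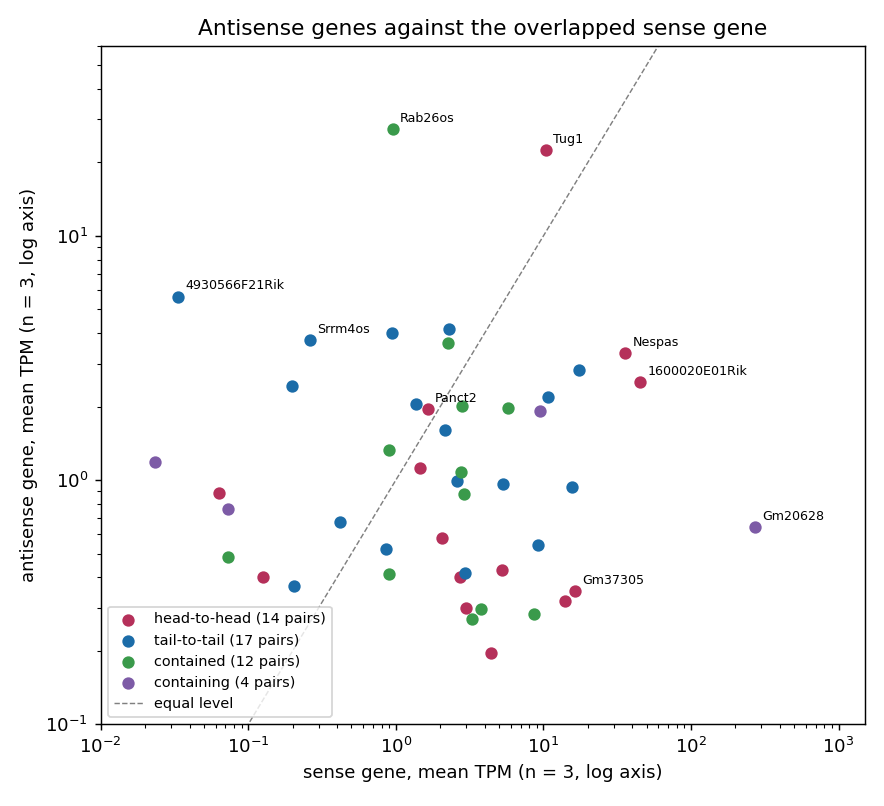
Mean TPM of each antisense gene (y axis) against that of the sense gene it overlaps (x axis), both on log scales, for 47 pairs coloured by arrangement, with a dashed line at equal level. Points fall on both sides of the line, from 4930566F21Rik far above a nearly silent sense gene (but below Gpn1, which it also overlaps) to Gm20628 at 0.643 TPM beside Hist2h3b at 272 TPM.

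Sense genes had a mean under 1 TPM in 15 pairs, and 11 of the 13 members above their sense gene with ranges apart were among these. The rule set a floor on the antisense count, so a low sense gene falls below it easily. Nothing is read from these numbers. A mean under 1 TPM is not silence, since 25 of the 49 members lay there too, and the sense gene Kif3c had 117, 71 and 62 counts. Rab26 had 1.07, 0.96 and 0.82 TPM beside Rab26os, a log2 difference of 4.71 ± 0.24 (SD, n = 3). Srrm4, a splicing regulator of neurons, had 0.45, 0.24 and 0.09 TPM beside Srrm4os, a difference of 3.50 ± 0.32. Afap1l1, an actin-associated protein gene, had 0.31, 0.16 and 0.12 TPM beside 1500015A07Rik at 2.81, 2.61 and 1.89 TPM. No value of the sense gene reached any value of the antisense gene in these 3 pairs. Tril, a Toll-like receptor accessory gene, lay at 0.07, 0.06 and 0.06 TPM while Gm16499 had 1.59, 0.63 and 0.44 TPM. The sperm glycolytic gene Gapdhs, inside Tmem147os, had 1, 0 and 0 counts, and 4930548H24Rik, beside 4930566F21Rik, had 4, 2 and 0 counts. Those 2 sense genes were at or near the floor of 3 counts, so no fold is given. The direction depended on the sense gene taken for 4 of the 13 members above it: 4930566F21Rik, 1110002L01Rik, 4732471J01Rik and Gm29724 also overlap Gpn1, Asxl2, Ceacam1 and Zbtb44. Each lay below that more expressed gene with ranges apart. For 4930566F21Rik the log2 difference to Gpn1, a GTPase gene at 15.8, 12.9 and 14.1 TPM, was -1.38 ± 0.47 (SD, n = 3).

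Some antisense genes exceeded a sense gene with a mean above 1 TPM. Tug1 lay above Morc2a, an ATPase gene that acts in gene silencing, which had 14.1, 9.55 and 7.56 TPM, and the log2 difference was 1.10 ± 0.17 (SD, n = 3). Gm15545 lay above Bcl2l12 at 2.85, 1.74 and 2.3 TPM, a difference of 0.82 ± 0.45. Panct2 and Slco4c1, an organic anion transporter gene that starts 1045 bp from it, were close: Slco4c1 had 1.99, 1.66 and 1.29 TPM, the ranges overlapped, and the difference was 0.19 ± 0.26. Vax2os and the eye homeobox gene Vax2 overlapped as well, at 1.68, 0.89 and 0.79 against 1.67, 1.73 and 1 TPM.

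At the other end were antisense genes beside abundant coding RNAs. Sense genes exceeded the antisense gene at least 10 times in mean TPM in 12 pairs. Over the 707 counted pairs the share at 10 times was not computed, and their median log2 difference was -3.46 ± 0.29 (SD, n = 3). The 12 are therefore not read as a trait of the members. The lowest difference was that of Gm20628 (chromosome 3, 96267075 to 96270289), whose body contains the histone H3 gene Hist2h3b. It had 0.43, 0.41 and 1.09 TPM against 258.6, 263.4 and 293.9 TPM, a log2 difference of -8.63 ± 0.59 (SD, n = 3), where Hist2h3b counts were fractional and are uncertain because histone genes have near-identical copies. Gm37305, head to head with the cyclin L1 gene Ccnl1, had 0.5, 0.25 and 0.3 TPM against 19.5, 15.5 and 13.9, a difference of -5.21 ± 0.23. For 1700052K11Rik against the kinase gene Tlk2 it was -5.08 ± 0.11, and for 4732440D04Rik within the autophagy gene Rb1cc1 -4.52 ± 0.10. In these 4 pairs the ranges of the 2 genes were apart. Nespas lay at -3.34 ± 0.32 beside Gnas, the gene of the stimulatory G protein alpha subunit, at 50.9, 34.7 and 21.9 TPM. Gnas was taken here as its whole locus, which has several promoters, so the value does not say which Gnas transcript Nespas was set against.

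Arrangement and level were described together. The 14 head-to-head pairs had a median log2 difference of -2.62 ± 0.25 (SD, n = 3 replicates), with 9 antisense genes below, 3 above and 2 overlapping. The 17 tail-to-tail pairs had -0.16 ± 0.18, with 7 below, 6 above and 4 overlapping. The 12 contained genes had -0.90 ± 0.42. The 4 that contain their sense gene had 0.04 ± 0.33, a midpoint between 2 above and 2 below that describes none of them. Brip1os (-2.26) and Gm20628 (-8.63) lay below, while Tmem147os and 4732471J01Rik lay above sense genes with few counts. Each SD in this paragraph is the spread of a median over replicates, not the spread among genes. Differences between arrangements were not tested. Antisense genes with 1 exon made up 6 of the head-to-head group and 0 of the tail-to-tail group. Over all members, 10 had 1 exon (20.4%), against 22 of 128 lincRNA genes (17.2%), and members had a median of 3 exons and 3215 exonic bases.

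The start of the antisense gene often lay beside a coding gene other than the sense gene it overlaps. An opposite-strand coding start fell within 1000 bp in 26 of 49 members (53.1%), and in 18 of these it belonged to another gene than the sense gene. The share was 35% of 783 antisense genes with fewer counts, 15.1% of the 2077 without counts and 7.81% of 128 lincRNA genes. The bodies pointed away from each other without crossing in 13 of the 26 and crossed in the other 13. Windows of these 26 members held a median of 30 CpG, against 12 in the other 23, and their median level was 1.16 TPM against 0.873 TPM.

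The coding neighbour had a mean of 1.47 TPM or more in all 26, with a median of 10.8 TPM. Neighbour levels were not summarized for the other antisense genes, so this is not read as a trait of the members. The antisense gene lay below its neighbour with ranges apart in 22 of the 26, above it in 1 and overlapping in 3. Among the 291 antisense genes with any count beside a counted coding start, 92.1% lay below and 0.344% above, and that 1 gene was Tug1 over Morc2a. By the order within each library, 23 of the 26 lay below and 2 above, against 92.8% and 1.03% of the 291. Rab26os starts 310 bp from Traf7, a ubiquitin ligase gene with 25.3, 19.2 and 16.7 TPM, and overlapped its range while lying above it within each library. Brip1os and the DNA helicase gene Brip1, 177 bp apart, had 2.38, 2.12 and 1.25 against 2.65, 2.2 and 1.45 TPM, overlapping but lower within each library. Vax2os with Vax2 was the third overlapping pair, with no single order.

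The neighbour was at least 10 times higher in mean TPM in 13 of the 26. That share was not computed for the 291, so the 13 are not read as a trait of the members. The pairs that follow are from the 13. Other pairs with the antisense gene below had narrower gaps, down to 2.52 times for 4930566F21Rik beside Gpn1. Gt(ROSA)26Sor starts 32 bp from Setd5, a chromatin regulator gene with 44.9, 32.1 and 19.3 TPM, which was 11.3 times higher in mean TPM. 1600020E01Rik starts 74 bp from the start of Pcbp1, an RNA-binding protein gene, with 3.37, 3.12 and 1.06 TPM against 57.7, 44.6 and 33 TPM. Gm15545 beside the arginine methyltransferase gene Prmt1 had an 18 times higher neighbour, and Gm10069 beside the cochaperone gene Fkbp4 a 46.4 times higher one. Gm44777 had 0.73, 0.43 and 0.46 TPM beside the ribosomal protein gene Rps13 at 52.7, 47.8 and 42 TPM. In all these pairs the lowest value of the coding gene lay above the highest value of the antisense gene. The gap was largest for Gm20628 beside the histone H2B gene Hist2h2bb, at a mean of 572 ± 46.4 TPM (SD, n = 3).

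**Figure D4:**
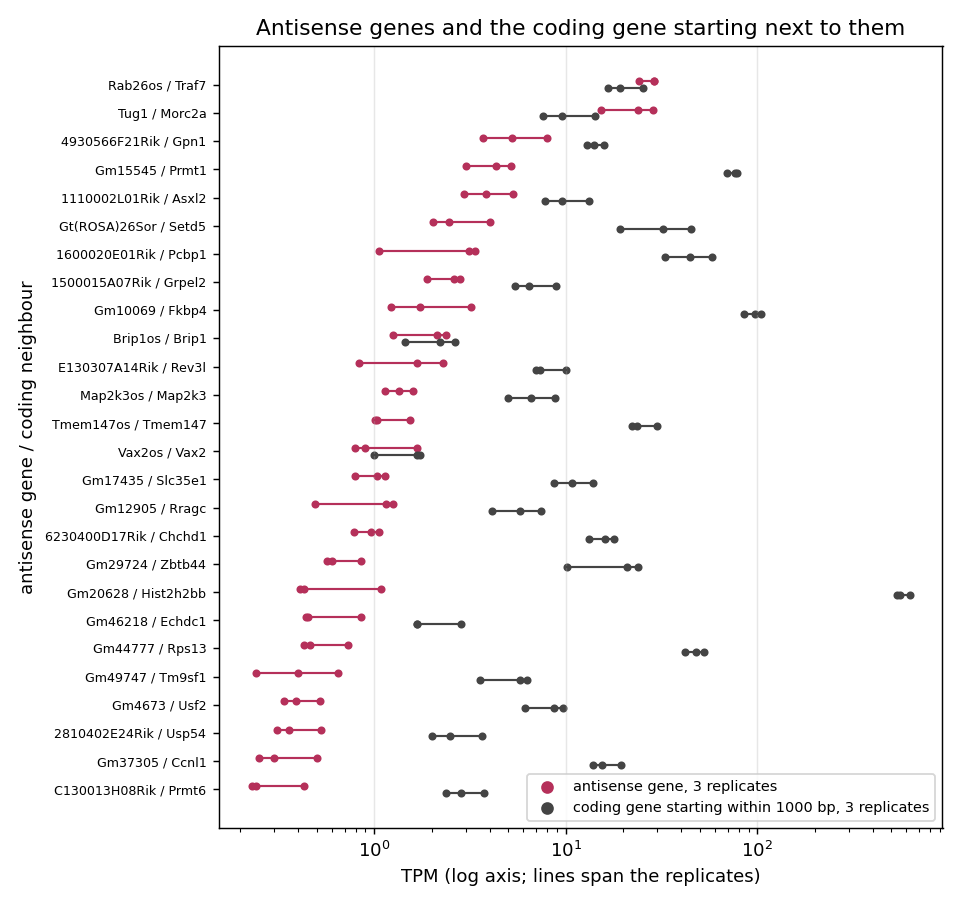
TPM (x axis, log scale) of 26 antisense genes (red) and the opposite-strand coding gene that starts within 1000 bp (grey), with 1 point per replicate and lines that span the 3 replicates. The coding gene lies to the right with ranges apart in 22 pairs, Tug1 lies above Morc2a, and Rab26os, Brip1os and Vax2os overlap their neighbours.

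Replicate spread of the members resembled that of their sense genes. The median coefficient of variation of TPM was 29.4% for members and 30.4% for sense genes. Replicate 3 was the lowest library for 33 of 49 members and 35 of 47 sense genes. Replicate 1 was the highest for 39 members and 41 sense genes. The shares over all genes are not given here, so these counts are not read as a trait of the members. In CPM scaled by TMM, which removes an overall shift, 23 of 48 tested members were above the mean of replicates 1 and 2 in replicate 3 and 25 below, with a median log2 ratio of -0.05. The edgeR goodness-of-fit test asked which genes varied between replicates beyond genes of similar abundance. It called 1 of 48 members (2.08%) at a Benjamini-Hochberg adjusted p under 0.05, against 1.84% of the 12577 genes tested. At an unadjusted p under 0.05 there were 5 members (10.4%), against 6.96% of all genes. Kank4os did not pass the filter on low counts. Of 39 sense genes tested, edgeR called 0, with DESeq2 size factors also 0, and 3 had an unadjusted p under 0.05.

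The member called was Gm20628, at 3.02, 3.62 and 12.1 TMM-scaled CPM (edgeR goodness of fit, adjusted p = 0.00245). Replicate 3 stood alone, at a log2 ratio of 1.86 over the mean of the other 2. Its sense gene Hist2h3b had 206.2, 256.9 and 373.2 on the same scale, a ratio of 0.69, and an edgeR adjusted p of 0.681. The call was lost without replicate 1 (edgeR adjusted p = 0.0828), without replicate 2 (0.0675) and without replicate 3 (0.999), and its count of 64 in replicate 3 against 36 and 24 is small.

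The 4 other members with an unadjusted p under 0.05 did not pass the adjusted test. 2900060B14Rik had 1.84, 1.51 and 5.27 TMM-scaled CPM (edgeR adjusted p = 0.106), and its inner snRNA record Gm22710, which shares its reads, passed with an adjusted p of 4.73e-04 in the same test. C130013H08Rik, head to head with the methyltransferase gene Prmt6, had 1.84, 2.41 and 5.46, and Gm36816 had 2.93, 2.71 and 6.22. Replicate 3 was the high library in all 3. Gm16499 went the other way, with replicate 1 high at 6.95 against 3.47 and 3.01. Of the 10 members with 1 exon, 7 were higher in replicate 3, with a median log2 ratio of 0.27, and of 38 spliced members 16, with -0.09. The 10 include Gm20628, 2900060B14Rik and C130013H08Rik. Shares by exon number were not computed over all tested genes, so this contrast is not read as a trait of members with 1 exon. Whether RNA quality or unspliced RNA moved these values was not tested. Effective length and the ratio had a Spearman's rho of -0.07 over the 48 genes, which share libraries.

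**Figure D5:**
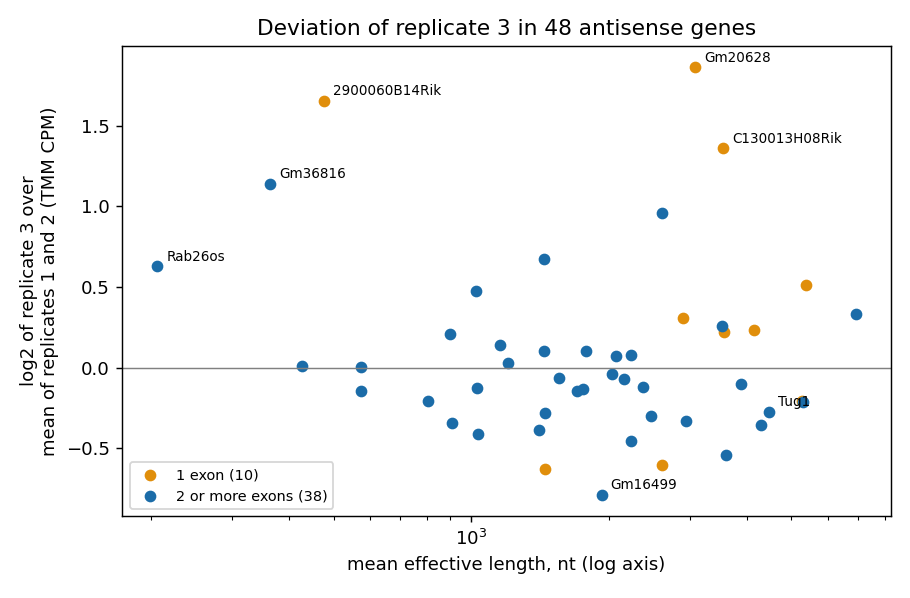
Log2 ratio of replicate 3 to the mean of replicates 1 and 2 in TMM-scaled CPM (y axis) against mean effective length in nt (x axis, log scale) for 48 antisense genes, coloured by 1 exon or more. Most genes lie near 0, and the 4 above a ratio of 1 are Gm20628, 2900060B14Rik, C130013H08Rik and Gm36816.

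Genes that remove antisense RNA were measured beside the members. A list of 16 held the exosome subunits Exosc1 to Exosc10 and Dis3, and the helicase Mtrex. It also held the NEXT subunits Zcchc8 and Rbm7, and Zfc3h1 and Pabpn1 of the PAXT connection. Of these, 15 had a mean above 1 TPM, from Exosc4 at 1.36 ± 0.323 to Exosc8 at 35.8 ± 3.31 TPM (SD, n = 3). Exosc6 had no count in any replicate, which is not read as absence of its RNA. Their median of 12.3 TPM lay above 47 of the 49 members. The edgeR test called 0 of the 15 tested as varying, with DESeq2 size factors also 0, and 0 had an unadjusted p under 0.05.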

How the data were processed

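The members and lists were chosen with earlier results of these data known. Libraries that keep strand were made from RNA after removal of ribosomal RNA, per the labels' protocols. STAR and RSEM and the build mm10 are named in the submitters' processing notes, without versions; the strand setting and annotation release are not given in the sources used here. Per the file headers, the authors deposited expected counts (estimated counts per gene, not normalized) and TPM, scaled by effective length. They also deposited FPKM, which was not used, and length and effective length in nt.

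Gene types, strands and positions came from GENCODE vM21 (GRCm38) by Ensembl ID. Of the 55487 IDs, 55141 matched. Transcripts matched for 48 of 49 members (not Gm12905) and 45 of 47 sense genes. Promoter windows were read from GRCm38. The sequence of 1 window is not reported here. Gene pairs were compared by their ranges over replicates, on log2(TPM + 0.1) for differences. Counts were rounded for edgeR 4.0.16 (R 4.3.3; DESeq2 1.42.0 size factors as an alternative), with an intercept-only design, TMM, filterByExpr and trended dispersion. The edgeR step was also tested on simulated counts. Of 50 genes raised in a single library, it called 3 at 2-fold and 47 at 4-fold (where 49 passed the filter). There were 0 false calls among the 12500 genes that its filter kept. The raised library was replicate 1, the deepest, the genes were drawn from all that passed the filter, and 1 common dispersion was used. This recovery therefore does not measure power for the members, of which 35 had mean counts under 50. Named genes followed a fixed rule: the 10 highest by TPM and by count, the 10 largest and 10 smallest differences to the sense gene, called genes, the 10 highest with starts within 1000 bp, those next to the count limit, and symbols other than Gm or Rik. Further genes were picked with their values in view. Python 3.11.15, pandas 2.3.3 and scipy 1.17.1 did the rest.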

Additional observations from a re-analysis of the deposited data

How the results depend on the processing

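For 5 results, 33 alternatives were run, 30 planned and 3 chosen after seeing the data. Of these, 18 stayed within 1.5 times or 1 SD, 12 moved and 3 reversed. The number of expressed antisense genes was 111 with a mean of at least 10 counts and 14 with at least 50, as fewer or more genes pass. It ran from 32 to 59 when each replicate was left out, lowest without replicate 1, and was 49 with the limit set in mean CPM. Antisense genes below the sense gene numbered 25 of 47, 5 of 14 at a mean of at least 50 counts and, chosen after seeing the data, 58 of 106 at 10 counts. They numbered 25 to 27 without each replicate, and 26 by the order within each library, also chosen after seeing the data. The median log2 difference, -1.14, was -0.75 when the pseudocount was 1, -1.84 in CPM, -1.61 with the highest opposite gene and -3.12 with no filter. It reversed to 0.25 at a mean of at least 50 counts, and ran from -1.36 to -1.02 without each replicate; the cause was not tested. The rank correlation of antisense and sense level, -0.08, reversed to 0.059 with CPM and 0.0452 with the highest opposite gene, and ran from -0.12 to -0.08 without each replicate. The 1 varying gene became 0 to 0 genes without each replicate, where fewer values can vary. Depth limits the low end, since 20 counts is 3.46 CPM in replicate 3. No paired analysis was possible because the 3 tables belong to a single group, so no replicate number links 2 groups; the antisense and sense genes were compared within each library.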

Other observations

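Antisense genes that the rule leaves out were also expressed. Kcnq1ot1, the long antisense RNA of the imprinted Kcnq1 cluster on chromosome 7, had 6051, 2799 and 2986 counts in replicates 1, 2 and 3, above Tug1 in each, but 2.4, 1.59 and 1.69 TPM because it spans 143203458 to 143296549. On the X chromosome, Tsix, the antisense RNA of the Xist locus, had 5.47, 3.04 and 3.59 TPM, and Gm14820 had 3.48, 2.94 and 2.21 TPM. GENCODE holds bidirectional-promoter noncoding genes as a separate class of 190 autosomal genes. Of these, 11 (5.79%) reached a mean of 20 counts, with a median of 1.43 TPM, and B230354K17Rik was highest at 8.09 ± 1.48 TPM (SD, n = 3). For the 49 antisense genes, taking the highest opposite gene in place of the one with the longest overlap changed the partner of 6: Gpn1 for 4930566F21Rik, Asxl2 for 1110002L01Rik, Med13 for Brip1os, Ceacam1 for 4732471J01Rik, Zbtb44 for Gm29724 and Hist2h2bb for Gm20628. In those 6 pairs the antisense gene had the lower mean.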
